A study of Sus scrofa with 6 samples.

Results

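The splicing factors and hnRNPs described here are the genes whose symbols in the expression table begin with SRSF and a digit, HNRNP, SF3A or SF3B and a digit, SNRP, or U2AF. They number 55 of the 29861 genes in the table, with 11 SR genes, 20 hnRNP genes, 21 core snRNP genes (9 SF3 and 12 SNRP) and 3 U2AF genes. The rule uses the symbols only. RNA of porcine oocytes was sequenced in 3 groups of 2 samples. Control oocytes were matured in vitro without heat exposure. Heat-stressed oocytes (the group heat stress) were held at a raised temperature for the first 24 h of maturation. NMN-supplemented oocytes (the group heat stress+NMN) received the same heat with nicotinamide mononucleotide, a precursor of NAD+, in the medium. Every NMN-supplemented sample was also heated, so NMN without heat was not compared. The oocytes came from abattoir ovaries. The methods give the number of oocytes collected per group and do not say whether each sample was a separate pool. The labels give GV as the stage of all samples, whereas the methods give metaphase II. No label says that replicates came from separate collections, and P-values then measure only the spread between these samples, which may be technical.

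Splicing removes introns from precursor mRNA in the spliceosome, a machine built from small nuclear RNAs and proteins. SR proteins bind exons through their RNA recognition motifs and recruit the spliceosome, whereas many hnRNPs coat introns and exons and oppose the use of splice sites, and also act in mRNA export, stability and translation. The snRNP proteins form the stable core. The Sm ring, encoded by some of the SNRP genes, surrounds the small nuclear RNA. SF3A, SF3B and U2AF hold the U2 snRNP at the branch point and the 3′ end of the intron. A growing oocyte stores mRNA and largely stops transcription before it resumes meiosis, so that mRNA levels during maturation mainly follow storage and decay.

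Values are FPKM, fragments per length of transcript and per mapped fragment of a sample, so that levels can be compared between genes. Of the 55 members, 40 reached 1 FPKM in the mean of the 6 samples and were tested: 8 SR, 18 hnRNP, 12 core snRNP and 2 U2AF genes. The nearest members above and below this limit were SRSF9 (mean of 1.09) and SNRPG (0.983). The other 15 were read as low values and not tested: SRSF5, SRSF11, SRSF12, HNRNPL, HNRNPLL, SF3A1, SF3A2, SF3B3, SF3B4, SNRPA, SNRPB, SNRPD2, SNRPG, SNRPN and U2AF1L4. Among them, SF3A2, which joins SF3A3 in the SF3A complex, read 1.22 and 1.18 FPKM in control, 0.741 and 0.533 under heat stress and 0.0668 and 0.225 with added NMN. These low genes did not share 1 pattern. SF3B4 read 0.941 and 1.54, then 0.0487 and 0.543, then 1.41 and 0.811 FPKM in these groups. HNRNPL read 0.783 and 0.774, then 0.262 and 0.573, then 0.796 and 0.689 FPKM. Fold changes are differences of log2(FPKM + 1), which understate the changes of low genes, and come with a standard error (SE) from one limma model of the 3 groups over 4713 genes. A member is called where its unadjusted P was under 0.05, and the P-value adjusted by the Benjamini-Hochberg method over the 4713 genes is given beside it. For 1 gene in 2 against 2 samples, an exact two-sided permutation test gives no P below 0.333.

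FPKM summed to between 163929 and 290136 per sample, and the 13 mitochondrially encoded genes took 61.7% to 66.4% of the sum in control, 62.4% and 71.6% under heat stress and 74.2% and 74.7% with added NMN. Heat-stressed replicate 1 stood apart: its genes that are not mitochondrially encoded summed to 109125 FPKM, against 57865 to 62744 in the other samples, and a single row, LOC100513953, took 40365.5 of it and was listed at 0 in the others. Without that row its sum was 68759. Scaling all samples to the same sum of these nuclear genes therefore gives different values with and without LOC100513953. With it, a scaling added after the data were seen, 3 members were called in heat-stressed against control oocytes (0 higher, 3 lower, SF3B5 among them), 0 in NMN-supplemented against heat-stressed (limma) and 2 in NMN-supplemented against control, and every call below was lost but those of SF3A3 and SRSF9 under heat stress and of SRSF3 and SF3B5 against control with added NMN. Elsewhere below, the same nuclear sum leaves this row out. Of 18 oocyte markers, 15 were above 1 FPKM in every sample, and their sum was 3670 and 3920 FPKM in control, 3630 in both samples under heat stress and 3470 and 3200 with added NMN. GDF9, an oocyte growth factor, had 732 and 777 FPKM in control, 477 and 532 under heat stress and 435 and 353 with added NMN. ZAR1, which binds stored maternal mRNA, had 17.3 and 23.8, then 11.8 and 13.8, then 4.30 and 2.84 FPKM in these groups. Not all oocyte markers fell. WEE2 had 157 and 134, then 201 and 198, then 251 and 249 FPKM, and BMP15 was also higher in the heated groups. Its values were 1610 and 1650, then 1860 and 1940, then 1820 and 1750 FPKM, whereas BTG4 and H1FOO overlapped between the groups. The 18 cumulus and granulosa cell markers in the table summed to 2.76 and 3.93 FPKM in control, 4.35 and 4.74 under heat stress and 4.96 and 5.13 with added NMN, with only GREM1 above 1 FPKM in any sample and 3 markers at 0 in all. GREM1 alone had 2.48 and 1.73, then 3.27 and 2.87, then 3.58 and 3.55 FPKM in these groups, most of each sum. The 5 blood and immune markers summed to at most 0.528 FPKM. The mitochondrial share and the cumulus and granulosa sum, mostly GREM1, were thus highest in the NMN-supplemented samples, as were several members below. The oocyte marker sum was lowest there, and the part of these values in the results was not tested. In bulk RNA of pooled oocytes, fewer cells of a type and less RNA per cell cannot be told apart.

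The hnRNP genes had the largest summed FPKM of the classes in every sample, although the median FPKM of the SR genes was above that of the hnRNPs in 4 of the 6. HNRNPA0, an RNA-binding protein that stabilizes mRNAs with AU-rich elements, had the highest mean, 86.5 FPKM. It was followed by HNRNPF, which binds runs of G, with a mean of 50.7, SRSF1, the founding SR protein, with 33.0, and HNRNPA1, a splicing repressor that shuttles to the cytoplasm, with 29.3. The 5 highest members held 52.6% of the summed mean FPKM of all members. After SRSF1, the SR genes with the highest means were SRSF2, which binds exonic enhancers, with 16.3 FPKM and SRSF10 with 14.7. Core snRNP genes were lower. The highest was SNRPC, the U1 protein that contacts the 5′ splice site, with 5.07 FPKM, before SF3B5, a small SF3B subunit, with 4.62, and SF3B6, which touches the branch point adenosine, with 4.35. The 2 tested U2AF genes averaged 7.02 FPKM for U2AF2 and 4.49 for U2AF1.

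**Figure D1:**
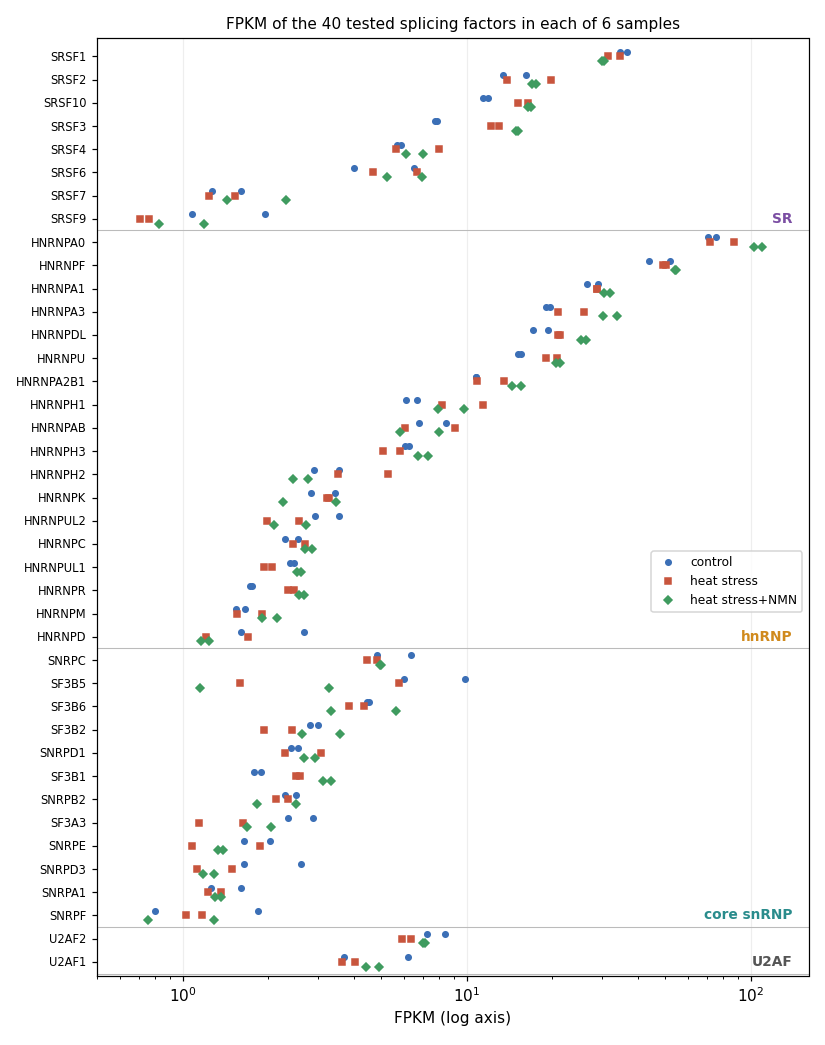
FPKM of the 40 tested members in each of the 6 samples on a log axis, grouped by class and ordered by mean; each point is 1 sample, with 2 samples per group. HNRNPA0, with a mean of 86.5 FPKM, lies highest, and all core snRNP genes lie below 10 FPKM.

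The first comparison asked which splicing factors differed after heat stress. Of the 40 tested members, 6 were called higher in heat-stressed than in control oocytes (15.0%, against 12.7% of all tested genes) and 3 were called lower (7.5%, against 10.1%), so that these shares lay near those of all genes. SRSF3, SRSF10, HNRNPU, HNRNPR, HNRNPH1 and SF3B1 were higher, whereas SF3A3, U2AF2 and SRSF9 were lower. With an adjusted P under 0.05, limma called 0 of 40 members, against 0.0% of all tested genes.

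SRSF3, the smallest SR protein, which couples splicing to mRNA export and 3′ end choice, had 7.85 and 7.74 FPKM in control samples, 12.2 and 13 in heat-stressed samples and 15.2 and 14.9 in NMN-supplemented samples. The 3 groups did not overlap. The mean was 1.62 times the control mean in heat-stressed oocytes, with a log2 fold change of 0.63 ± 0.10 (SE, limma, adjusted P = 0.111), the smallest P of any member in this comparison.

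SRSF10, an SR protein that represses splicing when it is dephosphorylated, as after heat shock, had 11.4 and 11.9 FPKM in control, 16.4 and 15.2 under heat stress and 16.8 and 16.4 with added NMN. Both heated groups lay above the controls and overlapped each other. The heat-stressed mean was 1.36 times the control mean (log2 fold change of 0.41 ± 0.11, SE, limma, adjusted P = 0.137), and without heat-stressed replicate 1 (log2 fold change of 0.36) it was no longer called. SRSF9, an SR protein known from the nuclear stress bodies of heat-shocked cells, was the only SR gene called lower. It had 1.95 and 1.08 FPKM in control and 0.762 and 0.710 in heat-stressed samples, a log2 fold change of -0.51 (limma, adjusted P = 0.219) from control samples that differed widely. Without control replicate 1 its log2 fold change was -0.26, and with 1 sample left out it was called only without control replicate 2. It was also not called with a pseudocount of 0.1 FPKM (-0.90). The remaining 5 tested SR genes were not called, with SRSF1 at 36.7 and 34.6 FPKM in control and 31.6 and 34.6 in heat-stressed samples.

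Among hnRNPs, HNRNPU, a nuclear scaffold protein that binds RNA and chromatin, had 15.5 and 15.2 FPKM in control, 19.0 and 20.9 under heat stress and 20.6 and 21.3 with added NMN. The controls lay below all heated samples, and the heat-stressed mean was 1.30 times the control mean (log2 fold change of 0.36 ± 0.11, SE, limma, adjusted P = 0.160). HNRNPR, an mRNA-binding protein, had 1.73 and 1.75 FPKM in control and 2.46 and 2.35 in heat-stressed samples, without overlap (0.31 ± 0.11 on the log2 scale, SE, limma, adjusted P = 0.188). HNRNPH1, which binds runs of G like HNRNPF, had 6.68 and 6.12 FPKM in control and 11.4 and 8.20 in heat-stressed samples, with a log2 fold change of 0.53 (limma, adjusted P = 0.190). The heat-stressed samples were both above the controls but differed from each other more than the controls did. HNRNPH1 was not called without heat-stressed replicate 1 (log2 fold change of 0.31) or without either control sample (0.59 and 0.48), and HNRNPU was not called without heat-stressed replicate 2 (0.30) or control replicate 2 (0.34). HNRNPR lost its call with any 1 of the 6 samples left out (0.29 to 0.34), and with the same nuclear sum neither HNRNPU (0.32) nor HNRNPR (0.29) was called. The other 15 tested hnRNPs were not called, and 0 of 18 were called lower, against 10.1% of all tested genes.

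In the core snRNPs, the 2 called genes of the U2 complex had opposite signs. SF3B1, the large subunit that clamps the branch point helix, had 1.89 and 1.78 FPKM in control, 2.51 and 2.59 under heat stress and 3.12 and 3.32 with added NMN. The 3 groups did not overlap, and the heat-stressed mean was 1.39 times the control mean (log2 fold change of 0.32 ± 0.11, SE, limma, adjusted P = 0.184). SF3A3, a subunit of SF3A, had 2.36 and 2.89 FPKM in control, 1.14 and 1.63 under heat stress and 2.05 and 1.68 with added NMN. The heat-stressed samples were the lowest of the 6, at 0.526 times the control mean (log2 fold change of -0.61 ± 0.16, SE, limma, adjusted P = 0.142). SF3A3 was not called without control replicate 2 (log2 fold change of -0.50) or heat-stressed replicate 1 (-0.46), and SF3B1 lost its call in this comparison with any 1 of the 6 samples left out (0.30 to 0.35), with only the compared groups in the fit, with a replicate block or with the same nuclear sum (0.30).

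U2AF2, which binds the pyrimidine tract upstream of the 3′ splice site, had 8.42 and 7.23 FPKM in control, 5.93 and 6.35 under heat stress and 7.13 and 7.02 with added NMN. Heat-stressed values lay below the other groups, with a log2 fold change of -0.30 against control (limma, adjusted P = 0.219), and with 1 sample left out it was called only without control replicate 2, with -0.20 to -0.34 without each of the others. It was not called either with the same median FPKM (-0.28) or the same nuclear sum (-0.34). SF3B5 had the largest negative fold change of any member without being called. Its FPKM was 6.03 and 9.87 in control, 1.59 and 5.77 under heat stress and 3.29 and 1.15 with added NMN, so that replicates of each group differed widely (heat-stressed against control: -1.06 ± 0.55 on the log2 scale, SE, limma, adjusted P = 0.304). Without heat-stressed replicate 2 it was called, at -1.76.

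**Figure D2:**
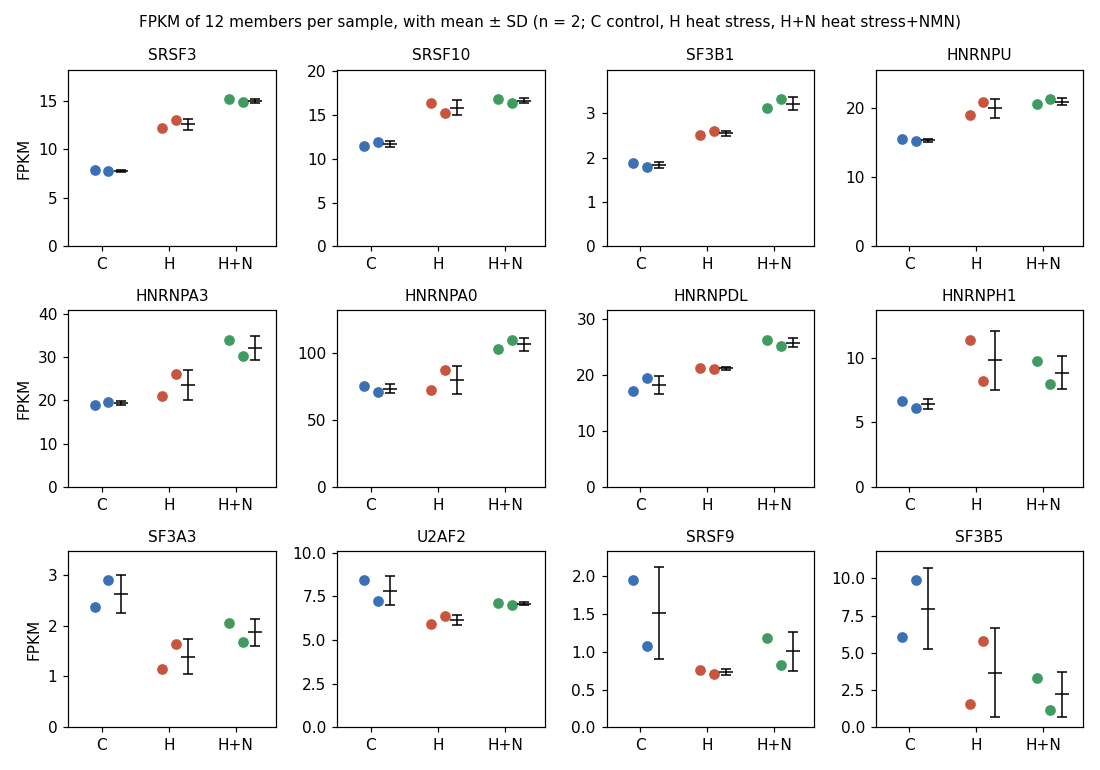
FPKM per sample (colored points) with the mean ± SD of each group (black, n = 2) for 12 members; each panel has its own vertical axis from 0. SRSF3 and SF3B1 separate all 3 groups, whereas in SF3B5 the 2 samples of a group lie far apart.

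The comparison of heat stress+NMN with heat stress asked what NMN changed in heated oocytes. Of the 40 tested members, 3 were called higher in NMN-supplemented oocytes (7.5%, against 7.15% of all tested genes) and 1 was called lower (2.5%, against 6.45%). All 4 were hnRNPs, out of 18 tested (22.2%, against 13.6% of all tested genes in either direction). By an adjusted P under 0.05, limma called 0 of 40 members in a background of 0.0%, and without heat-stressed replicate 1 or without NMN-supplemented replicate 1 no member was called.

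HNRNPA0 had 75.6 and 71.1 FPKM in control, 72.2 and 87.3 under heat stress and 103 and 110 with added NMN. The NMN-supplemented samples lay above all others, whereas control and heat-stressed samples overlapped. The NMN-supplemented mean was 1.33 times the heat-stressed mean (log2 fold change of 0.42 ± 0.13, SE, limma, adjusted P = 0.340). HNRNPA3, a paralog of HNRNPA1 that takes part in cytoplasmic mRNA transport, had 19.0 and 19.6 FPKM in control, 21 and 26 under heat stress and 34.0 and 30.2 with added NMN. The 3 groups did not overlap, and the NMN-supplemented mean was 1.37 times the heat-stressed mean (0.44 ± 0.14 on the log2 scale, SE, limma, adjusted P = 0.342). Without heat-stressed replicate 1 their log2 fold changes were 0.28 and 0.29 and without NMN-supplemented replicate 1 they were 0.46 and 0.36, and neither was called, nor was HNRNPA0 without NMN-supplemented replicate 2 (0.37). Neither was called after quantile normalization (0.39 and 0.35), and HNRNPA0 was not called with the same nuclear sum (0.47), under which HNRNPA3 kept its call.

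The paralogs HNRNPH3 and HNRNPH2, both binding runs of G, had fold changes of opposite sign. HNRNPH3 had 5.07 and 5.85 FPKM under heat stress and 6.75 and 7.29 with added NMN, beside 6.05 and 6.28 in control (NMN-supplemented against heat-stressed: 0.31 ± 0.12, SE, limma, adjusted P = 0.357). HNRNPH2 had 5.27 and 3.53 FPKM under heat stress and 2.76 and 2.44 with added NMN, beside 3.55 and 2.91 in control (-0.57 ± 0.19, SE, limma, adjusted P = 0.350). Heat-stressed replicate 1 was the highest of the 6 samples in HNRNPH2, which was not called without it (-0.33) or without either NMN-supplemented sample (-0.63 and -0.51). With 1 sample left out, HNRNPH3 was called only without heat-stressed replicate 2, with 0.23 to 0.36 without each of the others, and it was not called under any of the 3 scalings (0.27 to 0.36).

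SRSF3 (log2 fold change of 0.24, limma, adjusted P = 0.375) and SF3B1 (0.25, adjusted P = 0.381) had positive fold changes in NMN-supplemented against heat-stressed oocytes that were not called. SF3A3 (0.27, adjusted P = 0.445) and U2AF2 (0.18, adjusted P = 0.479), which were called lower under heat stress, were not called here either. Of the 8 SR, 12 core snRNP and 2 U2AF genes tested, 0 were called by limma in this comparison, against 13.6% of all tested genes. These are few genes for a share of that size.

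The comparison of heat stress+NMN with control joined both treatments. Here 9 of the 40 tested members were called higher (22.5%, against 25.6% of all tested genes) and 2 were called lower (5.0%, against 15.7%). The adjusted P was under 0.05 for 7 of 40 (17.5%, against 21.5% of all tested genes in either direction), all higher in NMN-supplemented oocytes. These shares lay below those of all tested genes. The comparison shares its control samples with the first and its NMN-supplemented samples with the second, so the values of one gene in the 3 comparisons are not independent.

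SRSF3 had the smallest P, with an NMN-supplemented mean of 1.93 times the control mean (log2 fold change of 0.87 ± 0.10, SE, limma, adjusted P = 0.0210). SF3B1 was 1.75 times (0.57 ± 0.11, SE, limma, adjusted P = 0.0279), HNRNPA3 1.67 times (0.71 ± 0.14, SE, limma, adjusted P = 0.0298) and SRSF10 1.43 times the control mean (0.48 ± 0.11, SE, limma, adjusted P = 0.0353). HNRNPA0 reached 1.45 times (0.53 ± 0.13, SE, limma, adjusted P = 0.0446) and HNRNPU 1.37 times the control mean (0.43 ± 0.11, SE, limma, adjusted P = 0.0447). HNRNPR, at 2.67 and 2.58 FPKM in NMN-supplemented samples, had an adjusted P of 0.0502. HNRNPA0 (0.48) and HNRNPU (0.40) were not called without NMN-supplemented replicate 2, nor was HNRNPR (0.39) without NMN-supplemented replicate 1 or HNRNPU after quantile normalization (0.29).

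HNRNPDL, a paralog of the AU-rich element binding protein HNRNPD, had 17.1 and 19.4 FPKM in control, 21.3 and 21 under heat stress and 26.3 and 25.2 with added NMN. The groups did not overlap, and the NMN-supplemented mean was 1.41 times the control mean (0.48 ± 0.11 on the log2 scale, SE, limma, adjusted P = 0.0397). HNRNPD itself, at 1.60 and 2.68 FPKM in control and 1.16 and 1.24 in NMN-supplemented samples, had a log2 fold change of -0.49 that was not called (limma, adjusted P = 0.130). HNRNPA2B1, which binds nuclear and transported RNAs, had 10.8 FPKM in both control samples, 10.9 and 13.6 under heat stress and 15.6 and 14.5 with added NMN (log2 fold change of 0.44, limma, adjusted P = 0.0691). It was not called without any 1 of the control or NMN-supplemented samples (0.39 to 0.49), after quantile normalization (0.34) or with the same nuclear sum (0.46).

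The 2 members called lower were both core snRNP genes, out of 12 tested (16.7%, against 15.7% of all tested genes). SF3B5 was at 0.279 times the control mean (log2 fold change of -1.52 ± 0.55, SE, limma, adjusted P = 0.0980), and it was not called without control replicate 1 (-1.84), control replicate 2 (-1.21) or NMN-supplemented replicate 2 (-1.03). SNRPD3, a protein of the Sm ring, had 1.65 and 2.61 FPKM in control, 1.12 and 1.49 under heat stress and 1.18 and 1.29 with added NMN (-0.47, limma, adjusted P = 0.119). Its control samples lay above all heated samples, and with 1 sample left out it was called only without control replicate 1, with -0.25 without control replicate 2, and under none of the 3 scalings (-0.44 to -0.47). The count of 7 with an adjusted P under 0.05 became 0 without control replicate 2 or without either NMN-supplemented sample, 1 without control replicate 1 and 4 without either heat-stressed sample.

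**Figure D3:**
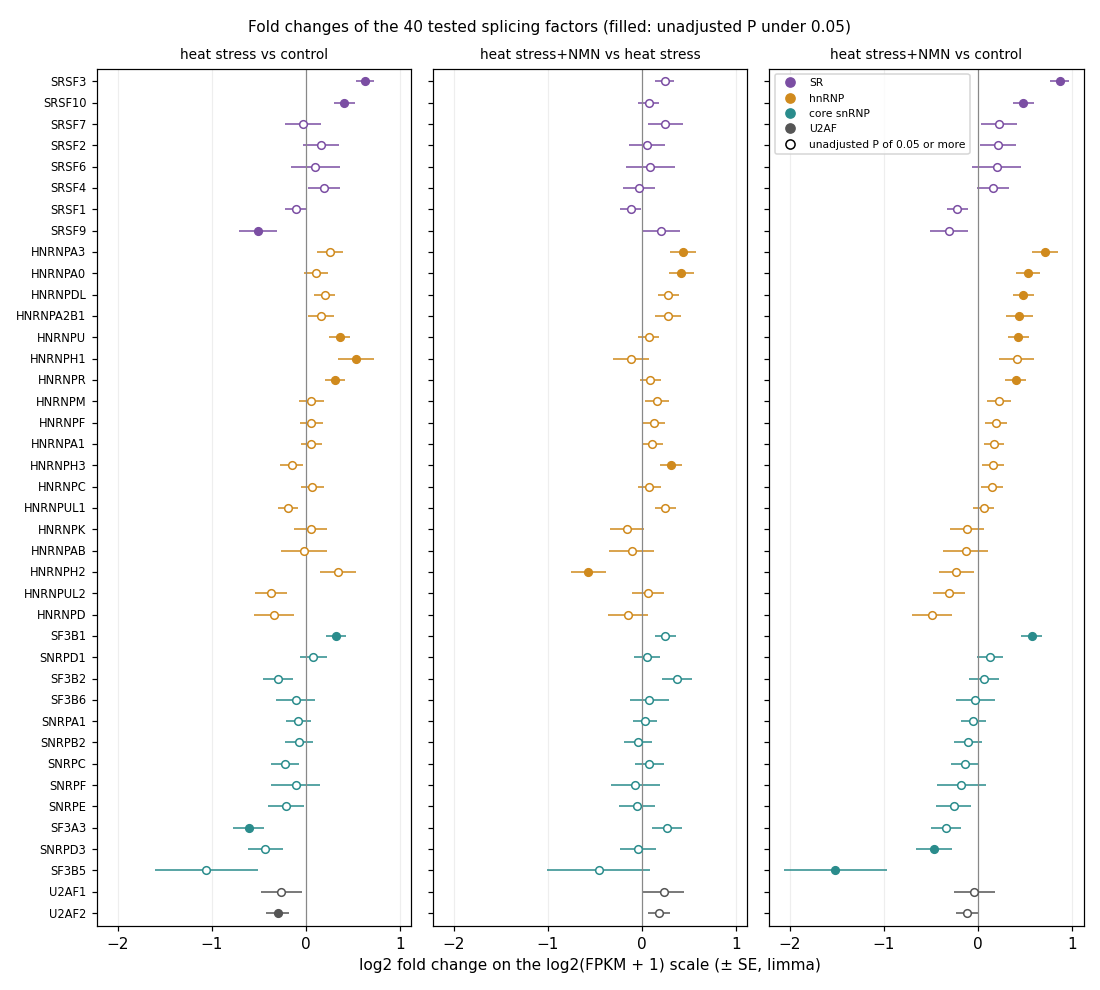
Log2 fold change ± SE (limma, log2(FPKM + 1) scale) of the 40 tested members in the 3 comparisons, colored by class; filled points have an unadjusted P under 0.05. SRSF3 has the largest positive value (0.87) and SF3B5 the largest negative one (-1.52), both in NMN-supplemented against control oocytes.

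By class, the medians of the log2 fold change in heat-stressed against control oocytes were 0.13 for SR genes, 0.06 for hnRNPs and -0.16 for core snRNPs, beside 0.05 over all tested genes. The fold change was positive in 5 of 8 SR genes, 13 of 18 hnRNPs and 2 of 12 core snRNPs, against 2597 of all 4713 tested genes. The 2 core snRNPs were SF3B1 and SNRPD1, an Sm ring protein with 2.54 and 2.41 FPKM in control and 2.30 and 3.07 in heat-stressed samples. In NMN-supplemented against heat-stressed oocytes, the medians were 0.08, 0.10 and 0.04, with 0.08 over all tested genes. Against control, NMN-supplemented oocytes had medians of 0.20, 0.18 and -0.12, with 0.11 over all tested genes. Their fold changes were positive in 6 of 8, 13 of 18 and 3 of 12 genes, against 2807 of all 4713 tested genes. The SR median rests on 8 genes, and its value for heat-stressed against control oocytes was -0.07 without heat-stressed replicate 2. The core snRNP median rests on 12 genes. In heat-stressed against control oocytes it was -0.29 without control replicate 1 and -0.10 without control replicate 2, and in NMN-supplemented against control oocytes these were -0.23 and -0.04, with -0.19 without NMN-supplemented replicate 1. Its value of 0.04 for NMN-supplemented against heat-stressed oocytes was 0.16 without heat-stressed replicate 2 and 0.01 without heat-stressed replicate 1. With samples scaled to the same median, to the same nuclear sum or by quantiles, the core snRNP median was -0.15 to -0.18 for heat-stressed and -0.08 to -0.13 for NMN-supplemented oocytes against control. With LOC100513953 in the nuclear sum, the medians in heat-stressed against control oocytes were -0.19 for SR genes, -0.20 for hnRNPs and -0.39 for core snRNPs, so that the first 2 changed sign.

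The summed FPKM of the 21 core snRNP genes was 38.0 and 48.5 in control, 28.8 and 35.0 under heat stress and 35.1 and 29.6 with added NMN. For the 20 hnRNPs, the sum was 258 and 249 in control, 270 and 287 under heat stress and 329 and 328 with added NMN. The 11 SR genes summed to 87.1 and 84.7, 94.2 and 95.2, and 96.8 and 96.0 FPKM in the same order. In FPKM as deposited, both control samples had the lowest SR and hnRNP sums and the highest core snRNP sums of the 6 samples, and for SR and hnRNP genes this order depends on the scaling. As a share of the nuclear FPKM, hnRNPs took 0.430% and 0.397% in control, 0.248% and 0.496% under heat stress and 0.533% and 0.552% with added NMN, and SR genes 0.145% and 0.135%, 0.0863% and 0.165%, and 0.157% and 0.161%. In heat-stressed replicate 1 these shares became 0.393% and 0.137% without LOC100513953, and the heat-stressed samples then spanned the controls for hnRNPs and overlapped them for SR genes. Core snRNP genes took 0.0633% and 0.0772% of the nuclear FPKM in control and 0.0264% to 0.0604% in the heated samples, below both controls. The lowest share, that of heat-stressed replicate 1, became 0.0419% without LOC100513953 and was still the lowest.

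A ratio of sums within a sample does not depend on how that sample was scaled. The hnRNP sum was 6.79 and 5.14 times the core snRNP sum in control, 9.38 and 8.21 times in heat-stressed and 9.38 and 11.1 times in NMN-supplemented samples, and the controls lay below all heated samples. The SR sum was 2.29 and 1.75 times the core snRNP sum in control, 3.27 and 2.72 times in heat-stressed and 2.76 and 3.25 times in NMN-supplemented samples. Between hnRNP and SR sums, the ratio was 2.94 to 2.97 in control, 2.87 to 3.01 under heat stress and 3.40 to 3.42 with added NMN. HNRNPA0 and SF3B5 weigh heavily in their sums. Without both, the ratio of hnRNPs to core snRNPs was 5.71 and 4.61 in control, 7.27 and 6.84 under heat stress and 7.12 and 7.69 with added NMN, with the same separation of control from heated samples.

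**Figure D4:**
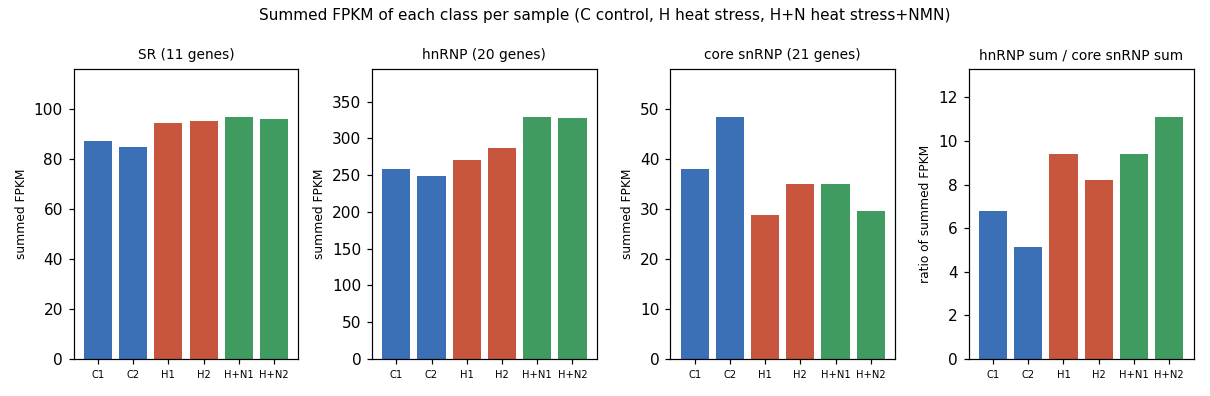
Summed FPKM of the SR, hnRNP and core snRNP genes in each sample and the ratio of the hnRNP to the core snRNP sum; each bar is 1 sample and every axis starts at 0. The ratio is 5.14 and 6.79 in the control samples and 8.21 to 11.1 in the heated samples.

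Transcript length moved with the fold changes in all 3 comparisons, and GC content moved with them in the comparisons against control. The longest annotated transcript of the tested members had a median of 2755.5 nt and a GC content of 46.1%, near the 2941 nt and 47.5% of all tested genes. The 6 members called higher under heat stress had a median of 5079.5 nt and 40.2% GC (range of 35.1% to 47.2%), and the 3 called lower had 1904 nt and 57.1% GC (49.5% to 61.3%), so that the GC ranges did not overlap. By class, the core snRNP transcripts were the shortest, with a median of 1476 nt against 2816 for SR and 3152 for hnRNP genes.

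Across the 40 tested members, Spearman's rho between transcript length and the log2 fold change was 0.53 for heat-stressed against control, 0.42 for NMN-supplemented against heat-stressed and 0.64 for NMN-supplemented against control oocytes. For GC content it was -0.57, -0.06 and -0.49. Over 4711 tested genes with a gene model, the values had the same signs, with 0.30, 0.28 and 0.40 for length and -0.48, -0.13 and -0.42 for GC content. These correlations are descriptions across genes measured in the same 6 libraries, the genes are not independent replicates, and the part of length and GC content in the class differences was not tested.

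**Figure D5:**
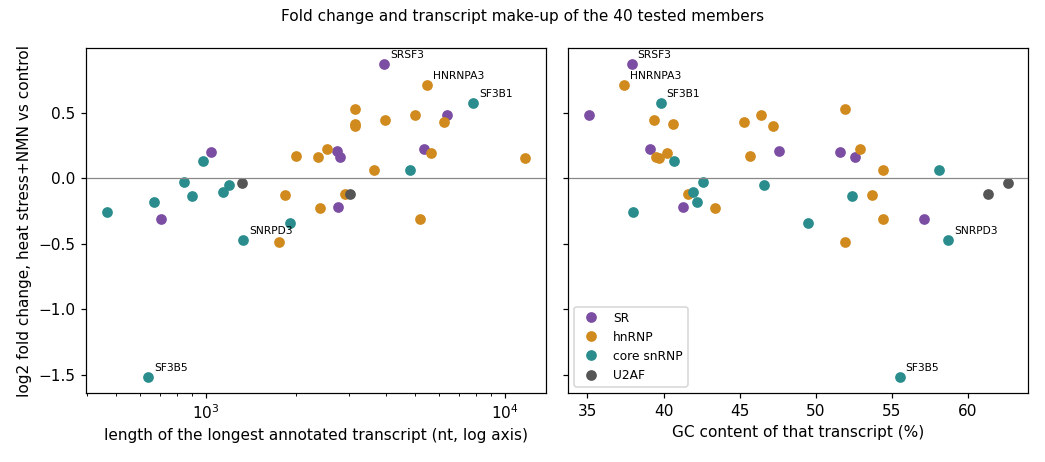
Log2 fold change of NMN-supplemented against control oocytes for the 40 tested members against the length (left, log axis) and GC content (right) of the longest annotated transcript, colored by class. Longer transcripts had higher fold changes (Spearman's rho of 0.64), and those rich in GC had lower ones (-0.49).

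The promoters of 3 members called higher under heat stress and of SF3A3, the member with the smallest P among those called lower, are shown so that the motifs counted below can be read in them. Each is the 250 bases before the annotated start of the gene in RefSeq on Sscrofa11.1, read 5′ to 3′ on the strand of the gene, and all 55 members had a gene model. SRSF3 lies on the plus strand (chr7:32289214-32289463), and SRSF10 (chr6:81741517-81741766), SF3B1 (chr15:101338019-101338268) and SF3A3 (chr6:93976325-93976574) on the minus strand. Capitals mark CCAAT on either strand (ATTGG on the other) and TATAAA.
SRSF3: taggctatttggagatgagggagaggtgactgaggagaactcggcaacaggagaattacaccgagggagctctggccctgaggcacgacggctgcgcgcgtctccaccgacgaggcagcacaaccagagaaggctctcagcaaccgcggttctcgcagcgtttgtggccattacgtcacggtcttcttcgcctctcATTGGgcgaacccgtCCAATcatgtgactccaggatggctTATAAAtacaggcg
SRSF10: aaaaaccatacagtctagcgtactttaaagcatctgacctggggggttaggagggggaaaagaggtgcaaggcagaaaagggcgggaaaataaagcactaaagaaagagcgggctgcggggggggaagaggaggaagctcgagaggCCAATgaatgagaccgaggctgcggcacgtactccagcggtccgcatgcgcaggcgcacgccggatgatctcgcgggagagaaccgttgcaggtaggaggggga
SF3B1: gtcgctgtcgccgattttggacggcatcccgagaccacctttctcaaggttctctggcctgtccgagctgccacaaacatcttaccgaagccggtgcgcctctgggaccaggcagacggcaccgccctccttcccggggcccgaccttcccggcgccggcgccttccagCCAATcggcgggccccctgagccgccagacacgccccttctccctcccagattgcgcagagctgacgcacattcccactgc
SF3A3: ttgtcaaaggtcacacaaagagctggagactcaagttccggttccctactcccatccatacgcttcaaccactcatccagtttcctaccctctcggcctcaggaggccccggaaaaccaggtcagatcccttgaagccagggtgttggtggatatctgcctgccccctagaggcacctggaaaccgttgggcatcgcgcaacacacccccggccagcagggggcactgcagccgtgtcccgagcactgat
Counted back from the start, CCAAT began at -54 (as ATTGG) and -39 in SRSF3, at -104 in SRSF10 and at -81 in SF3B1, and TATAAA at -14 in SRSF3. SF3A3 held neither.

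The same windows of all 55 members were searched on both strands for the CCAAT box and the TATA box (as above), for a site of ETS factors (CCGGAAG) and for the heat shock element (3 units of GAA in alternating orientation with 2 bases between units, starting from either orientation), motifs chosen after the values of the members were known. The CCAAT box was in 24 of 55 members (43.6%, against 35.7% of 4710 tested genes): 14 of 20 hnRNPs (70.0%), 3 of 11 SR genes and 7 of 21 core snRNP genes. It was in 5 of the 6 members called higher and 0 of the 3 called lower under heat stress, in 2 of 3 higher and 1 of 1 lower in NMN-supplemented against heat-stressed oocytes, and in 8 of 9 higher and 1 of 2 lower in NMN-supplemented against control oocytes. The share among all genes called in each comparison was not computed. Because the box was most frequent in hnRNPs, these counts also depend on class, and the part of class in them was not tested. The ETS site was in 13 of 55 (23.6%, against 10.7%), with 8 of 21 core snRNP genes. The TATA box was in 2 of 55 (3.64%, against 8.79%), SRSF3 and SNRPG. The heat shock element was in 0 of 55 windows, against 16 of 4710 (0.34%). A match is a run of letters in this window and was not tested as a binding site.

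Reads of several members could be shared with other loci. Genomic copies of at least 90% identity over at least 50% of the coding sequence were found for HNRNPA1 (4), HNRNPA3 (4), and HNRNPA2B1, HNRNPAB, HNRNPK, SNRPB2, SRSF7 and SRSF9 (1 each), and the FPKM of these genes are uncertain to that extent. Another annotated gene lies over the span of 16 tested members, and no source used here says that fragments were counted by strand. HNRNPA0 lies within KLHL3, whose own FPKM was 0.102 to 0.149, and HNRNPA3 shares 1256 bases with NFE2L2 (1.93 to 2.70 FPKM). HNRNPA2B1 shares 2470 bases with NFE2L3 (1.99 to 3.93 FPKM), and SRSF3 shares 2576 with the noncoding LOC102161912 (0.303 to 0.623 FPKM). The row named SNRPE lies on chromosome 1 at a pseudogene (111781784 to 111782249), whereas RefSeq places the coding SNRPE on chromosome 9 (64560544 to 64567007). This row was kept in the core snRNP counts, sums and medians. HNRNPU and SNRPB carry noncoding models in this annotation. Genomic copies were counted only for members with a protein-coding model, and so not for HNRNPU, SNRPB and SNRPE.

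Beyond the members, 137 other splicing genes were listed, of which 72 were tested. In heat-stressed against control oocytes 10 were called higher and 6 lower (13.9% and 8.33%, against 12.7% and 10.1% of all tested genes). In NMN-supplemented against heat-stressed oocytes 10 and 2 were called (13.9% and 2.78%, against 7.15% and 6.45%), and in NMN-supplemented against control oocytes 19 and 11 (26.4% and 15.3%, against 25.6% and 15.7%), of which 19 had an adjusted P under 0.05 (26.4%, against 21.5%). SRPK1, the kinase that phosphorylates SR proteins and moves them into the nucleus, had the smallest P of these under heat stress. It had 6.84 and 6.94 FPKM in control, 10.7 in both samples under heat stress and 14.0 and 13.5 with added NMN, without overlap between groups. Its log2 fold change was 0.57 (limma, adjusted P = 0.111) in heat-stressed and 0.90 (adjusted P = 0.0210) in NMN-supplemented oocytes against control.

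QKI, an RNA-binding regulator of alternative splicing, had 2.72 and 2.19 FPKM in control, 4.35 and 4.40 under heat stress and 5.28 and 4.76 with added NMN (heat-stressed against control: 0.64, limma, adjusted P = 0.118). RBM22, part of the catalytic core of the spliceosome, had 6.94 and 7.87, then 3.95 and 4.68, then 3.16 and 3.66 FPKM in these groups (-0.66, limma, adjusted P = 0.118). Both genes separated control from heated samples, in opposite directions. In NMN-supplemented against heat-stressed oocytes, the smallest P was that of TARDBP, an hnRNP-like splicing repressor. It had 17.4 and 16.1 FPKM in control, 19.7 and 21.1 under heat stress and 30.2 and 29.7 with added NMN (0.53, limma, adjusted P = 0.222). Against control, its log2 fold change in NMN-supplemented oocytes was 0.81 (limma, adjusted P = 0.021).

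LSM10, a ring protein of the U7 snRNP that processes histone mRNA, had 4.04 and 4.17 FPKM in control, 3.14 and 2.34 under heat stress and 1.38 and 0.780 with added NMN. The groups did not overlap (NMN-supplemented against heat-stressed: -0.85, limma, adjusted P = 0.223). In NMN-supplemented against control oocytes, the log2 fold change of LSM10 was -1.31 (limma, adjusted P = 0.021). KHSRP, which binds AU-rich and splicing elements, had 22.7 and 20.0 FPKM in control, 21 and 23 under heat stress and 29.0 and 31.2 with added NMN (0.43, limma, adjusted P = 0.300). As with HNRNPA0, its NMN-supplemented samples lay above all others while control and heat-stressed samples overlapped.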

How the data were processed

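RNA of 6 porcine oocyte samples, 2 per group, was assigned to groups from the labels. Per the methods, the authors trimmed reads with cutadapt and aligned them to susScr11 (Sscrofa11.1) with tophat2, and the submitters' processing notes name Cufflinks 2.2.1, Cuffnorm and Cuffdiff. The authors deposited FPKM per gene and sample. Their log2 fold changes, p-values and q-values, also deposited, were not used. The files used here hold no read counts, and depth is unknown.

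FPKM were log2-transformed after adding 1 FPKM. The 4713 genes that reached a mean of 1 FPKM were fitted in one model of the 3 groups with limma 3.58.1 in R 4.3.3 (empirical Bayes with a variance trend, two-sided), with Benjamini-Hochberg adjustment over these genes. The step was tested on simulated data. Members and lists were chosen with earlier results of these data known.

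Named were all tested members with P under 0.05 in any comparison, the 3 highest means per class, the highest U2AF, the largest rise and fall per comparison, and the 3 other splicing genes of smallest P per comparison. HNRNPD, SNRPD1, the values of SF3A2, SF3B4 and HNRNPL, and values of a named gene in further comparisons, were added after values were seen. The U2AF pair was kept apart from the core snRNP class. Gene models, promoters and motif positions came from RefSeq on Sscrofa11.1, and genomic copies from BLAST 2.17.0. Python 3.11.15, pandas 2.3.3 and matplotlib 3.10.9 were used for tables and plots. The 18 alternative settings included other pseudocounts, minimums and scalings (the same sum of nuclear genes leaves out LOC100513953, and a scaling with it was added after the data were seen), a replicate block and leaving out each sample.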

Additional observations from a re-analysis of the deposited data

How the results depend on the processing

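No result changed sign under an alternative among the counts and the 25 named fold changes. Against 9, 4 and 11 called members (heat-stressed against control, NMN-supplemented against heat-stressed, NMN-supplemented against control), an absolute log2 fold change over 1 left 0, 0 and 1, and a minimum mean FPKM of 5 left 4, 2 and 7. The main fit called 22.8%, 13.6% and 41.3% of all tested genes. Other minimums change how many members are tested, so their counts are not out of 40. Shares of all genes are given below for only some settings, and a loss of calls may be shared by all genes. With only the compared groups in the fit, the first count was 5, and with the same sum of nuclear genes, leaving out LOC100513953, the first and second were 5 and 2. With that row in the sum, a setting chosen after seeing the data, the 3 counts were 3, 0 and 2. The medians for heat-stressed against control oocytes were then -0.28 for all members, -0.19 for SR genes, -0.20 for hnRNPs and -0.39 for core snRNPs, and for NMN-supplemented against heat-stressed oocytes 0.39, 0.41, 0.42 and 0.27. This row is above 0 only in heat-stressed replicate 1. Quantile normalization gave 1, a minimum of 0.1 FPKM 10 and no minimum 9 for the second. The shares of all genes tested in these settings were 11.2%, 9.96% and 7.58%. Leaving out 1 sample gave 4 to 8, 0 to 5 and 6 to 11, and the lowest counts came without control replicate 2 or heat-stressed replicate 1 (4), without heat-stressed or NMN-supplemented replicate 1 (0) and without NMN-supplemented replicate 2 (6). The 7 members with an adjusted P under 0.05 became 4 with only the compared groups, 2 after quantile normalization, 1 with the same nuclear sum or a minimum of 0.1 FPKM, and 0 with no minimum.

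The median of the SR class in heat-stressed against control oocytes was -0.07 to 0.19 when 1 sample was left out. With a minimum of 5 FPKM the hnRNP median was 0.20 against heat-stressed and 0.42 against control for NMN-supplemented oocytes, and the median of all members was 0.14 for heat-stressed oocytes. With a minimum of 0.1 FPKM or none, the median of all members in NMN-supplemented against control oocytes was -0.04, from 0.10. The causes were not tested. Of the alternative values of named members, 299 stayed on their side of the threshold, 114 lost the call and 2 gained it. SRSF3 kept its call in 16 of 17 alternatives in heat-stressed against control oocytes, with an adjusted P of 0.0644 to 0.962 over all 17, and lost it (0.30) with LOC100513953 in the nuclear sum.

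With the replicate number as a replicate block, 7, 3 and 13 members were called, and 1 had an adjusted P under 0.05. The block gave calls for 19.9%, 11.2% and 38.5% of all tested genes, against 22.8%, 13.6% and 41.3% in the main fit. Deviations of samples with the same number correlated at -0.032, -0.0139 and 0.00805 across the tested genes. These samples thus showed no common pattern across genes, but a shift equal in all genes would not show in a correlation. Whether these samples shared a collection cannot be told from the correlations, because weak effects or effects on few genes would also leave such values.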
